A study of Mus musculus with 24 samples.

Results

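Retinas of mutant mice at 1 month of age were compared with retinas of normal mice of the same age, using every probe set of a gene array devoted to glycans, glycan-binding proteins and signalling molecules. The mutant animals (labelled RP mutant, P347S+) carried a rhodopsin transgene with the P347S mutation, and the normal animals (P347S-) did not. The samples were chosen by the genotype and age in their titles, which gave 3 mutant and 3 normal arrays, 6 of the 24 arrays in the series. The other arrays came from mutant and normal retinas of 2, 3 and 4 months, 3 for each genotype and age. The promoter that drives the transgene, the strain and the sex of the animals are not given in the sources used here. Whether the replicates were different animals is also not stated in the labels, and p-values therefore measure the spread between these samples only, which may be technical.

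P347S lies at the end of rhodopsin, the light-absorbing receptor of rods, in the stretch that sorts the protein to the outer segment. Mutations there cause dominant retinitis pigmentosa, in which rods die before cones. Per the series text, photoreceptor loss is barely visible in these mice at 1 month although rods have begun to die, and the study asked which glycan-related genes change at early, middle and late stages. In degenerating retina Müller glia and microglia are known to change state, and extracellular growth factors, many of them held by heparan sulfate chains, can act on surviving rods.

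The array held 1246 probe sets, of which 962 were matched to 908 mouse genes and 284 were left without a name. Probe sets with suffix s (237) or x (38), here those of Glycam1, Bmp15, B3galt1, Cx3cr1, Met, Fgf2, Notch2, Siglech, Lgals1, Lgals3, Lgals9, Neu2, Dcn and Gnb1, may detect other transcripts as well. The values are log2 signals from RMA, with no flag for signal above background, so that a dim probe set cannot be told from an absent transcript. They ran between 1.9 and 14.17, array medians lay between 5.15 and 5.34, and the 25th percentile of mean signal was 3.83. Across probe sets, arrays of the same genotype at 1 month correlated at 0.9977 to 0.9979 for mutant and 0.9964 to 0.997 for normal, against 0.9943 to 0.9965 between genotypes. The markers that could check the tissue were few. Gnb1, the beta subunit of rod transducin, read 12.88, 12.93 and 12.8 in mutant retinas, against 12.95, 12.89 and 13.16 in normal ones, and it was the only rod gene measured of 12 listed. The ranges overlapped, and the difference was -0.13 ± 0.12 (SE, adjusted p = 0.867, limma). None of the listed cone or bipolar and amacrine genes was measured. Grifin, a lens protein, read 5.74, 6.82 and 6.22 in mutant retinas, against 8.77, 5.8 and 6.01 in normal retinas, so 1 normal library stood apart. L1cam, an adhesion molecule of ganglion cell axons, differed by 0.05 ± 0.17 (adjusted p = 0.978), and Dcn, a connective tissue proteoglycan, by 0.21 ± 0.51 (adjusted p = 0.969, limma).

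At 1 month 4 probe sets of 1246 (0.321%) differed between genotypes at an adjusted p under 0.05. Those higher in the mutant were Btc, Sulf1 and Mcam (0.241% of probe sets), and 1 probe set without a gene name was lower (0.0803%). The test was limma's moderated test on the 24 arrays, with Benjamini-Hochberg adjustment over all probe sets. The 3 named genes passed it in each of the 12 other fits tried and in each of the 24 fits that left out 1 array. With 3 arrays against 3, an exact permutation test of a single gene cannot go below 0.1. In whole retina, more or fewer cells of a type and more or less RNA per cell cannot be told apart.

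Btc encodes betacellulin, a member of the epidermal growth factor family that activates the receptors EGFR and ErbB4, and it had the smallest p at this age. Its log2 signals were 9.13, 8.91 and 8.83 in mutant retinas, against 6.82, 6.91 and 6.91 in normal retinas. The lowest mutant array lay well above the highest normal array. The difference was 2.08 ± 0.25 (SE, 95% interval 1.56 to 2.6, adjusted p = 6.39e-05), a 4.22-fold higher signal in mutant retinas. The difference in Btc was 1.48, 1.4 and 1.39 at 2, 3 and 4 months, with adjusted p of 0.00299, 0.00164 and 0.000768 (limma). At 2 months the mutant arrays were uneven, at 8.3, 9.05 and 7.37, against 6.67, 6.6 and 7.0 in normal retinas, but the genotypes did not overlap. The mean difference at the later ages minus that at 1 month was -0.66 ± 0.29 (adjusted p = 0.4, limma), so a change in size with age did not pass.

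The array also held relatives and receptors of betacellulin, which were looked up after their values were seen. Areg and Hbegf, other ligands of EGFR, differed by 0.16 ± 0.15 and 0.15 ± 0.12 (SE, adjusted p = 0.877 and 0.841, limma). Egfr had 2 probe sets at -0.09 ± 0.11 and 0.21 ± 0.11 (adjusted p = 0.911 and 0.629, limma). Erbb4 differed by -0.19 ± 0.08 (adjusted p = 0.407, limma), at signals of 3.36 in mutant and 3.55 in normal retinas, below the 25th percentile of the array. Of these 5 probe sets beside Btc, then, none passed at 1 month.

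Sulf1 encodes an extracellular sulfatase that removes sulfate groups from the 6-O position of heparan sulfate and so alters which growth factors the chains hold. Mutant retinas gave 9.12, 8.84 and 8.97, against 8.27, 8.18 and 8.33 in normal retinas, with no overlap. Sulf1 was thus 1.64-fold higher in the mutant, a difference of 0.72 ± 0.11 (SE, 95% interval 0.5 to 0.94, adjusted p = 0.000838). The difference passed at each later age as well, at 0.49, 0.75 and 0.93 at 2, 3 and 4 months (adjusted p = 0.0127, 0.000405 and 2.87e-05, limma). The mean later difference exceeded that at 1 month by 0.01 (adjusted p = 0.988, limma). Sulf2, which encodes the other enzyme of this kind, and the 6-O-sulfotransferases Hs6st1, Hs6st2 and Hs6st3, which add the groups that sulfatases remove, were looked up after their values were seen. Sulf2 differed by 0.02 ± 0.1 (adjusted p = 0.99), and the sulfotransferases by -0.03 ± 0.18, 0.1 ± 0.12 and -0.15 ± 0.09 (adjusted p = 0.99, 0.911 and 0.669, limma).

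Mcam encodes CD146, an adhesion molecule of the immunoglobulin superfamily found on endothelium and pericytes. Its probe set, which can detect more than 1 transcript of the gene, gave 5.86, 5.74 and 5.91 in mutant retinas, against 5.21, 5.1 and 5.19 in normal retinas. All mutant arrays again lay above all normal arrays, by 0.67 ± 0.11 (SE, 95% interval 0.43 to 0.9, adjusted p = 0.0036), or 1.59-fold. At later ages Mcam differed by 0.07, 0.31 and 0.3 (adjusted p = 0.842, 0.0777 and 0.0907, limma). At 2 months the mutant arrays read 5.46, 5.38 and 5.42, against 5.4, 5.33 and 5.35 in normal retinas, and the groups overlapped. The mean later difference minus that at 1 month was -0.44 ± 0.13 (adjusted p = 0.185, limma), and this test did not pass. It did pass after renewed quantile normalization, with array weights and without mutant replicate 3 of 3 months, so whether the difference in Mcam changes with age depends on the fit.

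Other genes of vessels did not pass with Mcam. Of 17 listed endothelial and pericyte genes 7 were measured, Mcam was the only call, and their median difference was 0.02, against -0.01 over all 908 genes. Cd34, a sialomucin of endothelium, differed by 0.26 ± 0.14 (adjusted p = 0.646), Sele (E-selectin) by -0.14 ± 0.09 (adjusted p = 0.701) and Cspg4, the pericyte proteoglycan NG2, by -0.16 ± 0.11 (adjusted p = 0.771, limma). Sele averaged 2.68 in mutant and 2.82 in normal retinas, below the 25th percentile of the array (3.83), where signal and background are not separated. The summed linear signal of the list was 251 to 268 in mutant and 214 to 245 in normal retinas. That sum includes Mcam itself and so is not separate from the Mcam difference. The part of the other vessel genes in the Mcam difference was not tested.

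The unnamed probe set was listed under a UCSC transcript identifier, uc009opw.1, and is given here because it was the only call in its direction, a choice made after its values were seen. It read 6.89, 7.67 and 7.51 in mutant retinas, against 8.65, 9.07 and 8.69 in normal retinas. No mutant array reached a normal one, and the mutant signal was 0.366 times the normal one (-1.45 ± 0.31, SE, 95% interval -2.1 to -0.8, adjusted p = 0.0491). The difference was -1.45, -1.95 and -1.61 at 2, 3 and 4 months (adjusted p = 0.0127, 0.00126 and 0.00178, limma). The call at 1 month was the least secure of the 4. It was lost in 16 of 24 fits that left out 1 array, with an adjusted p of up to 0.296, and each of the 6 arrays of 1 month was among those 16. It was held only without mutant replicate 2 or 3 or normal replicate 2 at 2 months, mutant replicate 3 or normal replicate 1 or 3 at 3 months, or mutant replicate 1 or 2 at 4 months (adjusted p 0.00428 to 0.0489).

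**Figure D1:**
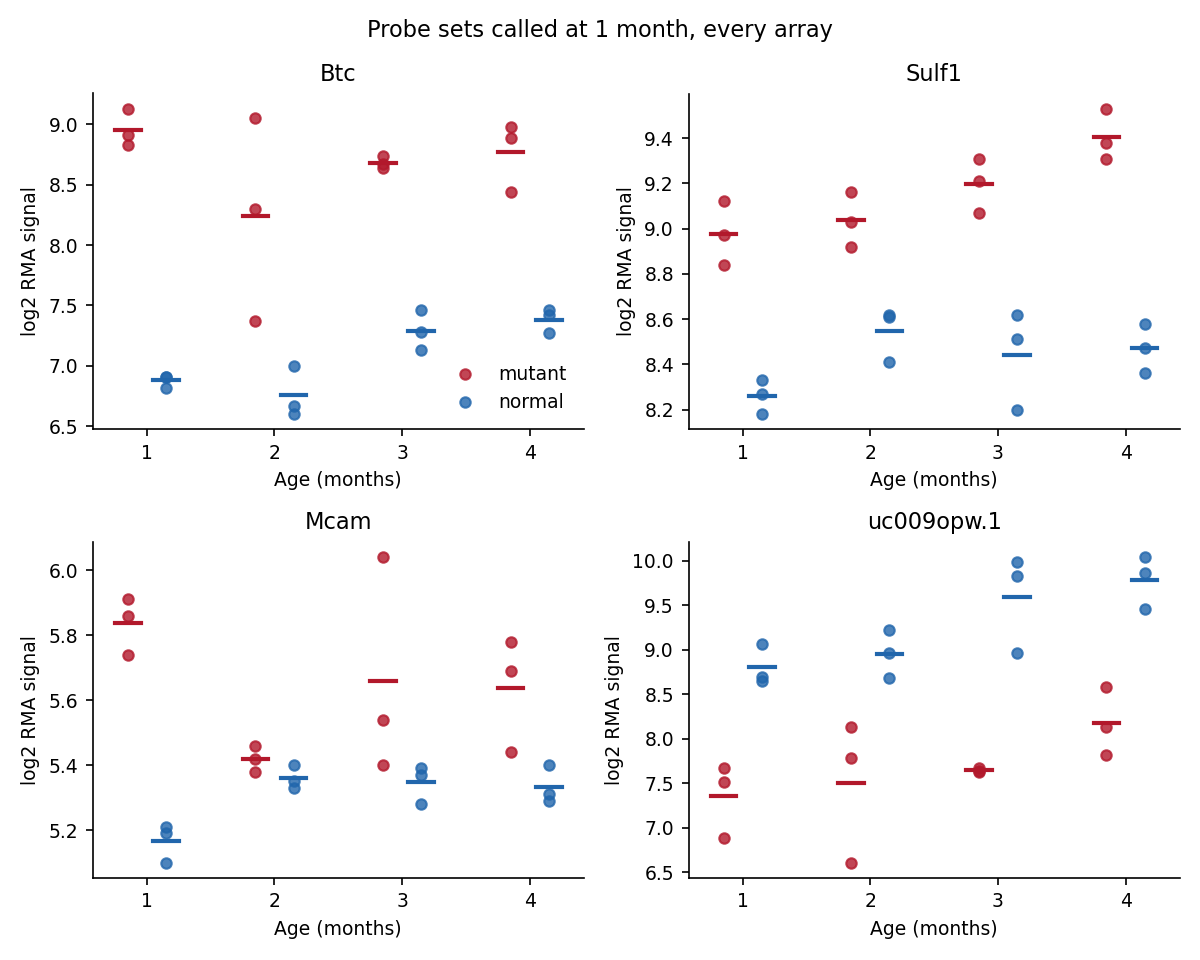
Log2 RMA signal (vertical axis) of Btc, Sulf1, Mcam and the unnamed probe set uc009opw.1 by age in months, with a point for each array and a short bar for the mean of 3 (mutant red and left, normal blue and right). At 1 month the genotypes are separate in each panel, and Mcam overlaps at 2 months.

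Promoters of the called genes with a name are shown because these genes differed at the earliest age. No entry was matched for Sulf1. RefSeq's table (GRCm38.p6) held a window of 250 bases before to 50 bases after the start for Btc and Mcam. Both are printed in the direction of the gene, and capitals mark the cyclic AMP response element (CRE) TGACGTCA where it occurs.
Btc, chr5:91402945-91403244, minus strand: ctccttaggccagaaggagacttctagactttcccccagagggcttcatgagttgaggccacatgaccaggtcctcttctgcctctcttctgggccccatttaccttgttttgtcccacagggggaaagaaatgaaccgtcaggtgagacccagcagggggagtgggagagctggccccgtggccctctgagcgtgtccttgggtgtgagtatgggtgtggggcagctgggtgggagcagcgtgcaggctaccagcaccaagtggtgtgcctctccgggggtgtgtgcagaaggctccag
Mcam, chr9:44134408-44134707, plus strand: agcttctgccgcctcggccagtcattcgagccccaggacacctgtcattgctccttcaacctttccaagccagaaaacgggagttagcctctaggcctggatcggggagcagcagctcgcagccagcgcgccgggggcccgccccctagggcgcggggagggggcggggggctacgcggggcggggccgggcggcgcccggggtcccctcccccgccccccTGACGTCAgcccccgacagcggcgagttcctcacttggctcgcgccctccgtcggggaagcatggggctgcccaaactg
The windows were searched on both strands for the CRE, for TGANTCA (AP-1), TTCNNNGAA (STAT), TAATCC (the photoreceptor factor CRX), TGGGAA (RBPJ, the Notch effector), CACGTG (E-box) and TATAAA (bound by TBP). The Mcam window held the CRE, starting 29 bases before the transcription start, and none of the others. The CRE was in 588 of 32851 promoter windows (1.79%). The Btc window held none of these motifs, which were found in 7.81% (AP-1), 8.3% (STAT), 7.06% (CRX), 25.6% (RBPJ), 7.15% (E-box) and 13.6% (TBP) of windows. A match describes the letters only, and no binding was measured.

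Across all probe sets, 115 (9.23%) had an unadjusted p under 0.05, 59 (4.74%) higher and 56 (4.49%) lower, and with 1 probe set per gene the share was 86 of 908 (9.47%). The genotypes did not overlap for 129 probe sets with higher mutant values (10.4%) and 146 with lower ones (11.7%). The median difference was -0.02, and the 5th and 95th percentiles were -0.21 and 0.31. Higher by value were 41.2% of all probe sets, and 44.5% of genes with 1 probe set per gene. The counts given for groups of genes are read against these shares.

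Just outside the threshold stood 3 genes with an adjusted p of 0.0545. Glycam1 encodes a mucin-like ligand of L-selectin and showed the largest difference of any gene named here. It read 7.09, 5.36 and 6.1 in mutant retinas, against 3.94, 3.84 and 3.62 in normal retinas, a difference of 2.38 ± 0.54 (SE). The normal arrays lay near the 25th percentile of the array, where signal and background are not separated, so no fold is given. The mutant arrays were uneven. At 2, 3 and 4 months the difference in Glycam1 was 1.97, 2.51 and 1.99, and it passed at each (adjusted p = 0.0462, 0.00496 and 0.0161, limma).

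Junb, a subunit of the AP-1 transcription factor that is induced early by many signals, gave 7.14, 6.94 and 6.66 in mutant retinas, against 6.05, 5.9 and 5.78 in normal retinas. The groups did not overlap and differed by 1.0 ± 0.23 (SE). Junb passed at no age, with differences of 0.63, 0.7 and 0.48 at 2, 3 and 4 months (adjusted p = 0.146, 0.0525 and 0.204, limma). Notch1, a receptor that keeps progenitors and glia from neuronal differentiation, gave 8.45, 8.25 and 8.4 in mutant retinas, against 7.85, 7.6 and 7.79 in normal retinas. Its difference of 0.62 ± 0.14 (SE) came with no overlap. Notch1 differed by 0.1 at 2 months (adjusted p = 0.802), and passed at 3 and 4 months at 0.67 and 0.83 (adjusted p = 0.00471 and 0.000652, limma). Junb falls under no list used here and was named after its values were seen.

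The next 7 probe sets shared an adjusted p of 0.0903. Higher in mutant retinas by value were Bmp15, a growth factor known from oocytes (0.79 ± 0.2, SE), Adgre1, a surface antigen of macrophages (0.77 ± 0.2), Il6st, the gp130 signalling receptor shared by interleukin 6 and its relatives (0.52 ± 0.13), B3galt1, a galactosyltransferase (0.47 ± 0.12), and Tmem165, a Golgi protein needed for normal glycosylation (0.32 ± 0.08). Lower by value were Pla2r1, a mannose receptor relative that binds secreted phospholipases (-0.39 ± 0.1), and Il11, a cytokine that signals through gp130 (-0.3 ± 0.08). The genotypes did not overlap for any of these 7, as for 22.1% of all probe sets. Tmem165, outside every list, was named after its values were seen. A second B3galt1 probe set differed by 0.33 ± 0.11 (adjusted p = 0.195, limma).

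**Figure D2:**
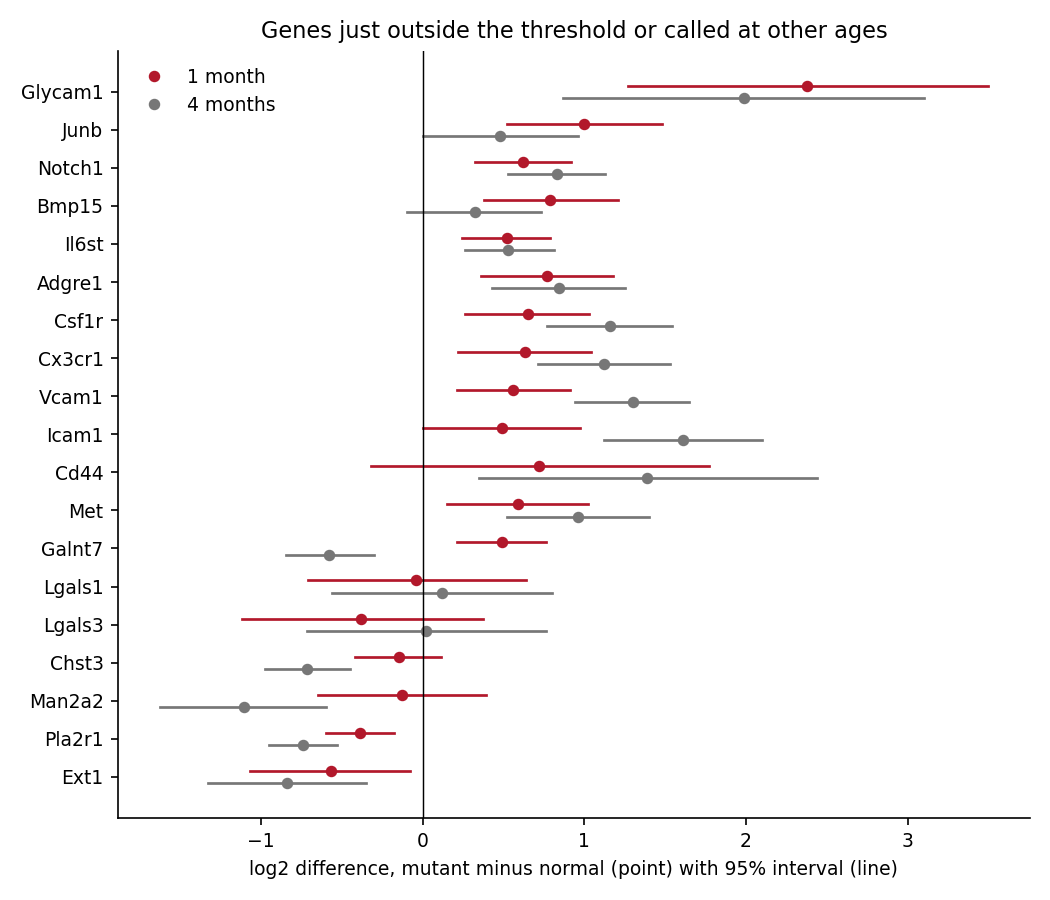
Log2 difference of mutant minus normal (horizontal axis, point) with its 95% interval (line) for 19 genes at 1 month (red) and 4 months (grey). The points of Adgre1, Csf1r, Cx3cr1, Vcam1, Icam1 and Cd44 lie above 0 at both ages, while the point of Galnt7 lies above 0 at 1 month and below 0 at 4 months. Microglial and adhesion genes with lower values at 1 month are not drawn.

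The 4 microglial and macrophage genes with the smallest p were higher by value, and none passed. Adgre1 read 4.36, 4.15 and 4.16 in mutant retinas, against 3.46, 3.33 and 3.57 in normal retinas. Its normal arrays lay below the 25th percentile of the array (3.83), where signal and background are not separated. Csf1r, the receptor on which microglia depend for survival, read 7.55, 7.2 and 7.29 in mutant retinas, against 6.59, 6.36 and 7.16 in normal retinas (0.65 ± 0.19, SE, adjusted p = 0.155). Cx3cr1, the fractalkine receptor, read 7.92, 7.66 and 7.6 in mutant retinas, against 7.1, 7.03 and 7.15 in normal retinas (0.63 ± 0.2, adjusted p = 0.179, limma). For all 3 genes every mutant array was above every normal array, as for 10.4% of all probe sets. Of 20 listed microglial and macrophage genes 9 were measured and 0 passed, with a median of 0.13. By value 6 of the 9 were higher, where 44.5% of all genes were. An unadjusted p under 0.05 was found for 4 of the 9, against 9.47% of all genes. Siglech, the microglial sialic-acid-binding lectin, was the fourth of these (0.37 ± 0.13, adjusted p = 0.301, limma). Those with lower values were Siglece, Cd33 and Siglec1, at -0.09 ± 0.08, -0.08 ± 0.09 and -0.04 ± 0.1 (adjusted p = 0.877, 0.911 and 0.969, limma), named after their values were seen. The summed linear signal of the list was 626 to 751 in mutant and 457 to 559 in normal retinas. That sum gives most weight to bright members, Cx3cr1 and Csf1r among them, and so is not separate from their differences. The part of the listed genes in the other differences was not tested.

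Of 5 measured genes that reactive Müller glia express 4 were higher by value, as were 7 of 10 adhesion genes, against 44.5% of all genes. Both lists hold Vcam1 and Icam1, so the counts are not separate. Of the 2 lists Mcam alone passed. Vcam1, a counter-receptor for leukocyte integrins, read 7.13, 7.09 and 7.35 in mutant retinas, against 6.58, 6.54 and 6.77 in normal retinas (0.56 ± 0.17, SE, adjusted p = 0.166). Icam1, another integrin ligand, read 4.45, 4.33 and 4.52 in mutant retinas, against 3.9, 3.89 and 4.05 in normal retinas (0.49 ± 0.23, adjusted p = 0.539). Cd44, the hyaluronan receptor, read 8.0, 7.82 and 7.86 in mutant retinas, against 7.4, 6.89 and 7.22 in normal retinas (0.72 ± 0.5, adjusted p = 0.772, limma). In each case the genotypes were separate at 1 month, as they were with higher mutant values for 10.4% of all probe sets. The normal arrays of Icam1 lay near the 25th percentile of the array. The errors are estimated over all 8 groups, and a fit on the 6 arrays of 1 month alone called Vcam1, Icam1 and Cd44 (adjusted p = 0.0096 each, limma). Fgf2, a survival factor for photoreceptors, differed by 0.36 ± 0.1 (adjusted p = 0.155, limma) at signals near the 25th percentile of the array. The member of the Müller list with a lower value was Lgals1, at -0.04 ± 0.33 (adjusted p = 0.99). Those of the adhesion list were Itgae, Madcam1 and Pecam1, at -0.32 ± 0.32, -0.19 ± 0.11 and -0.07 ± 0.17 (adjusted p = 0.887, 0.668 and 0.966, limma), named after their values were seen. Of 18 Müller and astrocyte genes 5 were measured and 0 passed, with a median of 0.49. Their summed linear signal was 788 to 814 in mutant and 601 to 722 in normal retinas. That sum includes Cd44 and Vcam1 and so is not separate from their differences.

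Among 59 measured growth factors Btc was the only call, and the median was 0.0. At an unadjusted p under 0.05, 7 were higher and 3 lower, against 52 higher and 34 lower of all 908 genes. Bdnf, a neurotrophin, differed by 0.34 ± 0.11 (adjusted p = 0.196, limma). None of 25 growth factor receptors passed. Met, the hepatocyte growth factor receptor, read 6.78, 6.11 and 6.6 in mutant retinas, against 5.61, 5.69 and 6.43 in normal retinas (0.59 ± 0.21, adjusted p = 0.301, limma). Its groups overlapped through the third normal array. Acvr1, a receptor for bone morphogenetic proteins, differed by 0.34 ± 0.13 (adjusted p = 0.404, limma). Of the 16 Notch pathway genes none passed, and Notch2 differed by 0.32 ± 0.17 (adjusted p = 0.632, limma). Of 34 Wnt and hedgehog genes none passed, with the receptor Fzd7 at 0.61 ± 0.2 (adjusted p = 0.227) and the ligand Wnt9b at -0.29 ± 0.09 (adjusted p = 0.166, limma). The 8 insulin-like growth factor binding proteins lay between -0.14 and 0.24, with 0 at an unadjusted p under 0.05.

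Chemokines, cytokines and their receptors gave no call. Of 29 chemokines, Cxcl12, the ligand of Cxcr4, differed by 0.5 ± 0.16 (adjusted p = 0.211) and Ccl8 by -0.25 ± 0.1 (adjusted p = 0.368, limma). The other Cxcl12 probe set differed by -0.18 ± 0.23 (adjusted p = 0.919, limma), so the 2 pointed different ways. Of 20 chemokine receptors 8 were higher by value, where 44.5% of all genes were, and none passed. Among 34 measured interleukins, interferons and colony-stimulating factors 9 were higher by value. At an unadjusted p under 0.05, 3 were lower, where 34 of all 908 genes were. Il11 and Il27 were among these (Il27 at -0.25 ± 0.1, adjusted p = 0.404, limma). No TNF ligand of this list was measured. Of 46 cytokine receptors 22 were higher by value, and Il6st and Csf1r had the smallest p.

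Genes that build or edit glycans gave 1 call at 1 month. Of 29 heparan sulfate genes Sulf1 was the only call, and the median was -0.03. Ext1, a subunit of the heparan sulfate polymerase, read 8.78, 9.07 and 9.14 in mutant retinas, against 9.7, 9.24 and 9.78 in normal retinas. Every mutant array was lower, but the difference of -0.57 ± 0.24 (adjusted p = 0.404, limma) did not pass. Of the 14 chondroitin and dermatan sulfate genes none passed or had an unadjusted p under 0.05. Chst3, which adds sulfate to position 6 of chondroitin, differed by -0.15 ± 0.13 (adjusted p = 0.851), and it was called at 4 months at -0.72 (adjusted p = 0.000768, limma). Of 27 proteoglycan core proteins 21 were higher by value, where 44.5% of all genes were, and none passed. Agrn (agrin) had the smallest p of these (0.33 ± 0.13, adjusted p = 0.404, limma).

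None of 19 sialyltransferases passed. At an unadjusted p under 0.05, 3 were higher, where 52 of all 908 genes were. Among these 3 were St3gal6 (0.49 ± 0.15, adjusted p = 0.166) and St6galnac5 (0.41 ± 0.15, adjusted p = 0.344, limma). Of 26 genes of O-GalNAc glycans none passed, with C1galt1, the core 1 synthase, at 0.23 ± 0.1 (adjusted p = 0.426, limma). Among 10 fucosyltransferases, Fut7, which makes selectin ligands in leukocytes, differed by -0.25 ± 0.09 (adjusted p = 0.334, limma). The 10 N-glycan processing genes lay between -0.13 and 0.18. Man2a2, a Golgi mannosidase, read 7.98, 7.65 and 7.47 in mutant retinas, against 8.16, 7.95 and 7.39 in normal retinas, with overlap (-0.13 ± 0.25, adjusted p = 0.964, limma). All 7 O-mannosylation genes lay below 0, between -0.23 and -0.01, and 0 had an unadjusted p under 0.05. Of 17 galactosyl- and N-acetylglucosaminyltransferases none passed, B3galt1 leading and B3gnt7 next (-0.31 ± 0.1, adjusted p = 0.195, limma).

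The remaining lists gave no call. They were 17 N-glycan precursor genes, 19 glycosphingolipid genes, 23 genes of lysosomal glycan degradation, 30 of nucleotide sugar synthesis, 20 nucleotide sugar transporters, 6 hyaluronan genes, 9 siglecs, 8 selectins with their ligands and 48 C-type lectins. Their medians lay between -0.08 and 0.07. Of the C-type lectins 12 of 48 were higher by value, against 44.5% of all genes, with a median of -0.05. Many of these lectins read below the 25th percentile of the array (3.83), where signal and background are not separated. Among the named leaders of these lists, Neu2, a sialidase, differed by -0.26 ± 0.08 (adjusted p = 0.166) and Uap1, which makes UDP-N-acetylglucosamine, by -0.31 ± 0.11 (adjusted p = 0.326, limma).

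**Figure D3:**
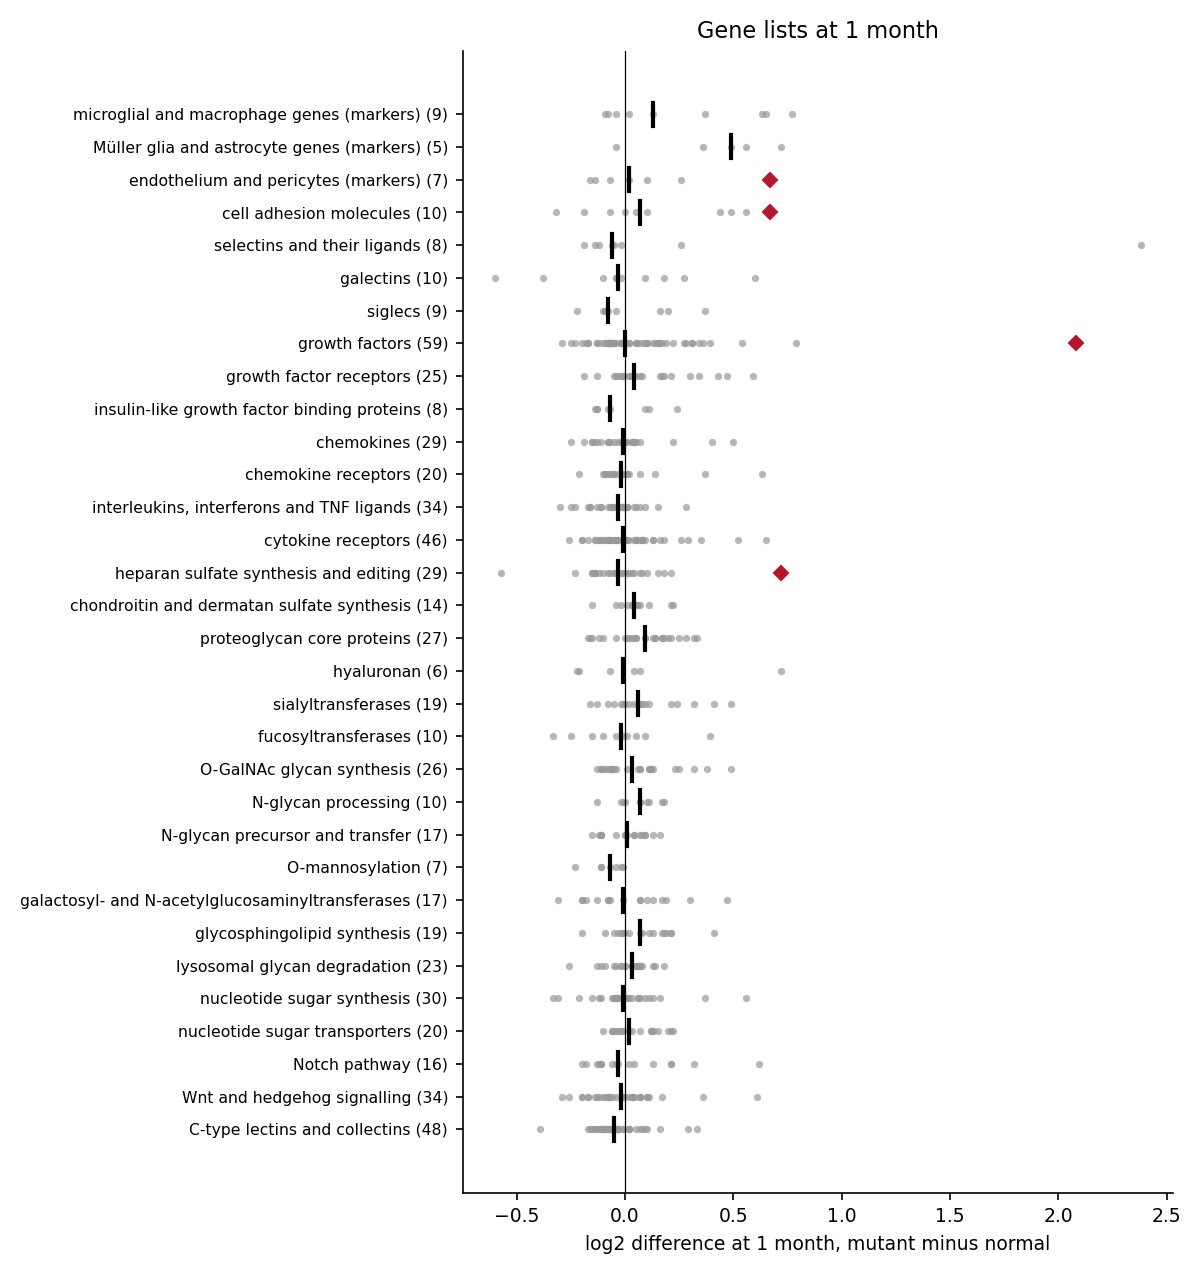
Log2 difference at 1 month, mutant minus normal (horizontal axis), for each measured gene of the lists with 5 or more measured genes (count in brackets). Grey points did not pass, red diamonds passed, and black bars are medians, which lie near 0 for nearly all lists apart from the Müller glia list at 0.49.

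Galectins, which bind beta-galactosides and which the series text gives as a reason for the study, gave no call at this age. Lgals1 read 8.56, 8.62 and 8.58 in mutant retinas, against 8.6, 8.5 and 8.77 in normal retinas. The ranges overlapped and the difference was -0.04 ± 0.33 (SE, 95% interval -0.71 to 0.64, adjusted p = 0.99, limma). Lgals3 read 6.37, 6.52 and 6.3 in mutant retinas, against 6.36, 6.84 and 7.11 in normal retinas. These overlapped too, at -0.38 ± 0.36 (95% interval -1.12 to 0.37, adjusted p = 0.877, limma), so the intervals still allow a change in either direction. Of 10 galectin genes none passed. Those with the smallest p were Lgalsl, a galectin-like protein (0.27 ± 0.08, adjusted p = 0.155), and Lgals9 (0.6 ± 0.22, adjusted p = 0.344, limma).

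The number of calls at 1 month depended on which arrays shared the estimate of spread. A fit on the 6 arrays of 1 month alone called 28 probe sets (2.25%), 25 higher (2.01%) and 3 lower (0.241%), and 25 of the 28 had the same sign at 2, 3 and 4 months. Of all probe sets 50.5%, 71.2% and 64.4% kept their sign at 2, 3 and 4 months, each age taken alone. The share over all 3 ages together is not given here. Beside the 4 above the 28 calls included Adgre1 and Junb (each adjusted p = 0.00184), Glycam1 (0.0043), Notch1 (0.00576), Cx3cr1 (0.00603) and Il6st (0.011, all limma). Single arrays of later ages moved the 24-array count as well. It became 8 without mutant replicate 2 and 13 without mutant replicate 3 of 2 months, 10 without mutant replicate 3 and 9 without normal replicate 3 of 3 months, and 7 without mutant replicate 1 of 4 months. The calls were 9 higher and 1 lower with each array centred on its median and 7 higher and 1 lower after renewed quantile normalization, against 3 and 1 as deposited.

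The difference between genotypes was called for more probe sets at later ages, at 43 (3.45%), 150 (12%) and 161 (12.9%) at 2, 3 and 4 months. The median absolute difference was 0.08, 0.1, 0.15 and 0.12 at 1, 2, 3 and 4 months. The ages share no arrays, though they share the estimate of spread. Of 118 probe sets higher in the mutant at 4 months (9.47%), 101 (85.6%) were also higher by value at 1 month, where 41.2% of all probe sets were. Their median difference was 0.52 at 4 months and 0.17 at 1 month. Of 43 probe sets lower at 4 months (3.45%), 27 (62.8%) were lower by value at 1 month, near the 58.8% of all probe sets, with medians of -0.48 at 4 months and -0.04 at 1 month. All 19 probe sets higher at 2 months (1.52%) were higher by value at 1 month, and of the 24 lower (1.93%) 16 (66.7%) were lower. Of the 83 higher at 3 months (6.66%), 77 (92.8%) were higher by value at 1 month, and of the 67 lower (5.38%), 51 (76.1%) were lower. Across the 1246 probe sets the differences at 1 month correlated with those at 2, 3 and 4 months at 0.35, 0.65 and 0.57, a description over probe sets that are not independent.

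Among genes called at 4 months, Icam1 differed by 0.49 at 1 month and 1.61 at 4 months, Vcam1 by 0.56 and 1.3, Csf1r by 0.65 and 1.16, and Cx3cr1 by 0.63 and 1.12. These later differences had adjusted p of 0.000156, 7.92e-05, 0.000334 and 0.000707 (limma). A test of the later difference against that at 1 month called none of the 4 in the fit reported here. These 4 were chosen with earlier results of these data known. Btc and Glycam1, also called at 4 months, went the other way by value. Btc differed by 2.08 at 1 month and 1.39 at 4 months, and Glycam1 by 2.38 and 1.99.

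**Figure D4:**
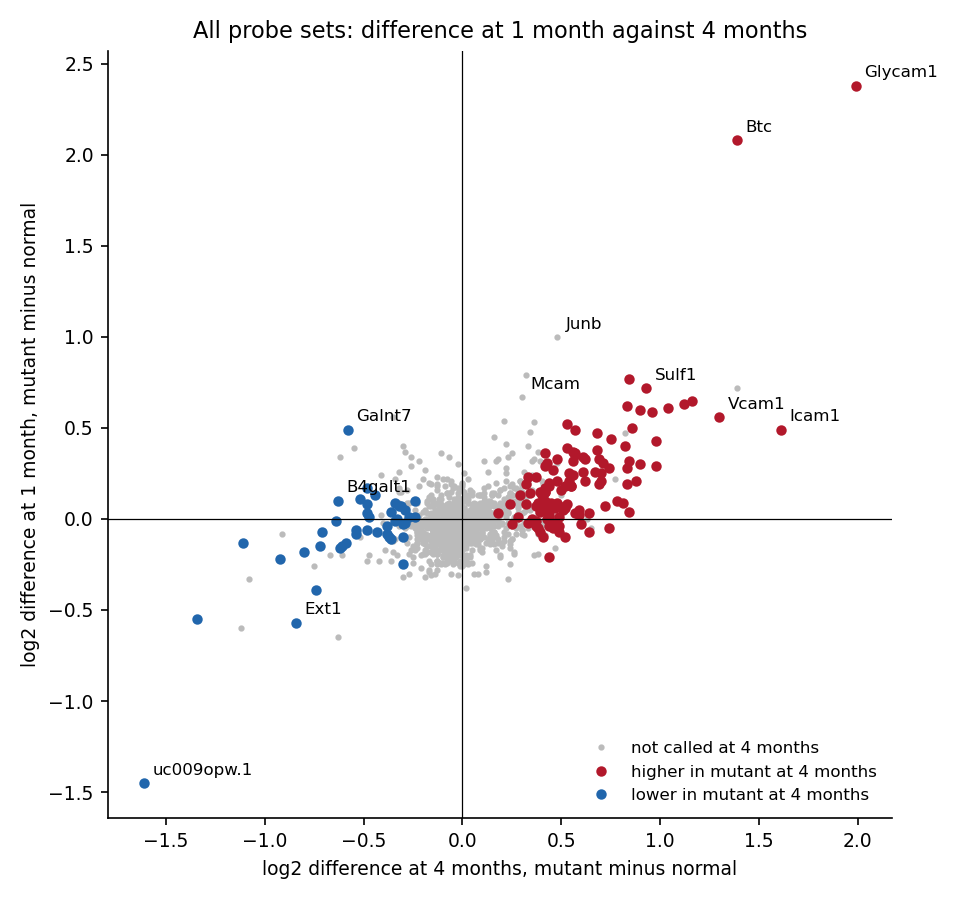
Log2 difference of mutant minus normal at 1 month (vertical axis) against that at 4 months (horizontal axis) for all 1246 probe sets. Red points were called higher and blue points lower in the mutant at 4 months, and 101 of the 118 red points lie above 0 at 1 month.

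The genotype difference at later ages was then tested against that at 1 month. For the mean of 2 to 4 months minus 1 month, 4 probe sets passed (0.321%). In all of them the mutant minus normal difference was lower at the later ages, and in 0 it was higher. Such a change can come from either genotype. Galnt7, a transferase that continues O-GalNAc glycosylation of already glycosylated peptides, read 7.72, 7.66 and 7.64 in mutant retinas of 1 month, against 7.26, 7.26 and 7.04 in normal retinas. At 4 months it read 7.01, 6.92 and 7.25 in mutant retinas, against 7.68, 7.73 and 7.51 in normal retinas. The mutant arrays were thus all above the normal ones at 1 month and all below them at 4 months. The genotype difference in Galnt7 was 0.49, -0.46, -0.01 and -0.58 at 1, 2, 3 and 4 months, and the later mean minus 1 month was -0.84 ± 0.15 (SE, adjusted p = 0.0125, limma).

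B4galt1, which adds galactose to N-acetylglucosamine on N-glycans, read 9.35, 9.39 and 9.43 in mutant retinas of 1 month, against 9.32, 9.25 and 9.29 in normal retinas. At 4 months it read 8.9, 8.83 and 8.58 in mutant retinas, against 9.37, 9.46 and 9.36 in normal retinas. The difference was 0.1 at 1 month and -0.4, -0.52 and -0.63 afterwards, and the change was -0.62 ± 0.11 (SE, adjusted p = 0.0125, limma). Fryl, a relative of the fly gene furry, differed by 0.01 at 1 month and by -0.37, -0.39 and -0.47 at 2, 3 and 4 months (-0.42 ± 0.08, adjusted p = 0.014, limma). Its mutant arrays read 11.08, 11.12 and 11.1 at 1 month, against 11.19, 10.98 and 11.1 in normal retinas. From 1 to 4 months the normal mean of Fryl went from 11.09 to 11.43 and the mutant mean from 11.1 to 10.97. Galnt4, which starts O-GalNAc glycans, differed by -0.07 at 1 month and by -0.48, -0.78 and -0.71 later (-0.59 ± 0.12, adjusted p = 0.0392, limma). It read 9.77, 9.86 and 9.84 in mutant retinas of 1 month, against 9.89, 9.9 and 9.89 in normal retinas. From 1 to 4 months the normal mean of Galnt4 went from 9.89 to 10.21 and the mutant mean from 9.82 to 9.5. At 1 month none of these 4 genes passed, with adjusted p of 0.111 for Galnt7, 0.877 for B4galt1, 0.99 for Fryl and 0.935 for Galnt4 (limma). Galnt7 passed at 1 month in the fit on the 6 arrays of that age (adjusted p = 0.0096), with array weights (0.00294), and without mutant replicate 3 of 2 months (0.00793, limma).

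With 4 months alone set against 1 month, 3 probe sets passed (0.241%), namely Galnt7 (adjusted p = 0.0152), B4galt1 (0.0166) and Fryl (0.0348, limma), and Galnt4 did not (0.0622). Both counts were 0 with the replicate number as a block; the numbers paired mutant and normal arrays at 2 months only, with correlations of deviations of 0.33, 0.66 and 0.25. These calls rested on few arrays. The count over 2 to 4 months was 0 without mutant replicate 2 or 3 or normal replicate 2 or 3 of 1 month. The count for 4 months was 0 without normal replicate 3 of 1 month or normal replicate 2 of 4 months. It was 24 without mutant replicate 3 of 4 months, 5 without mutant replicate 3 or normal replicate 2 of 3 months, and 6 without normal replicate 2 of 1 month, normal replicate 1 of 2 months or normal replicate 1 of 4 months. It was also 0 without the 3 arrays of 2 and 4 months with a Grifin signal above 10.

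**Figure D5:**
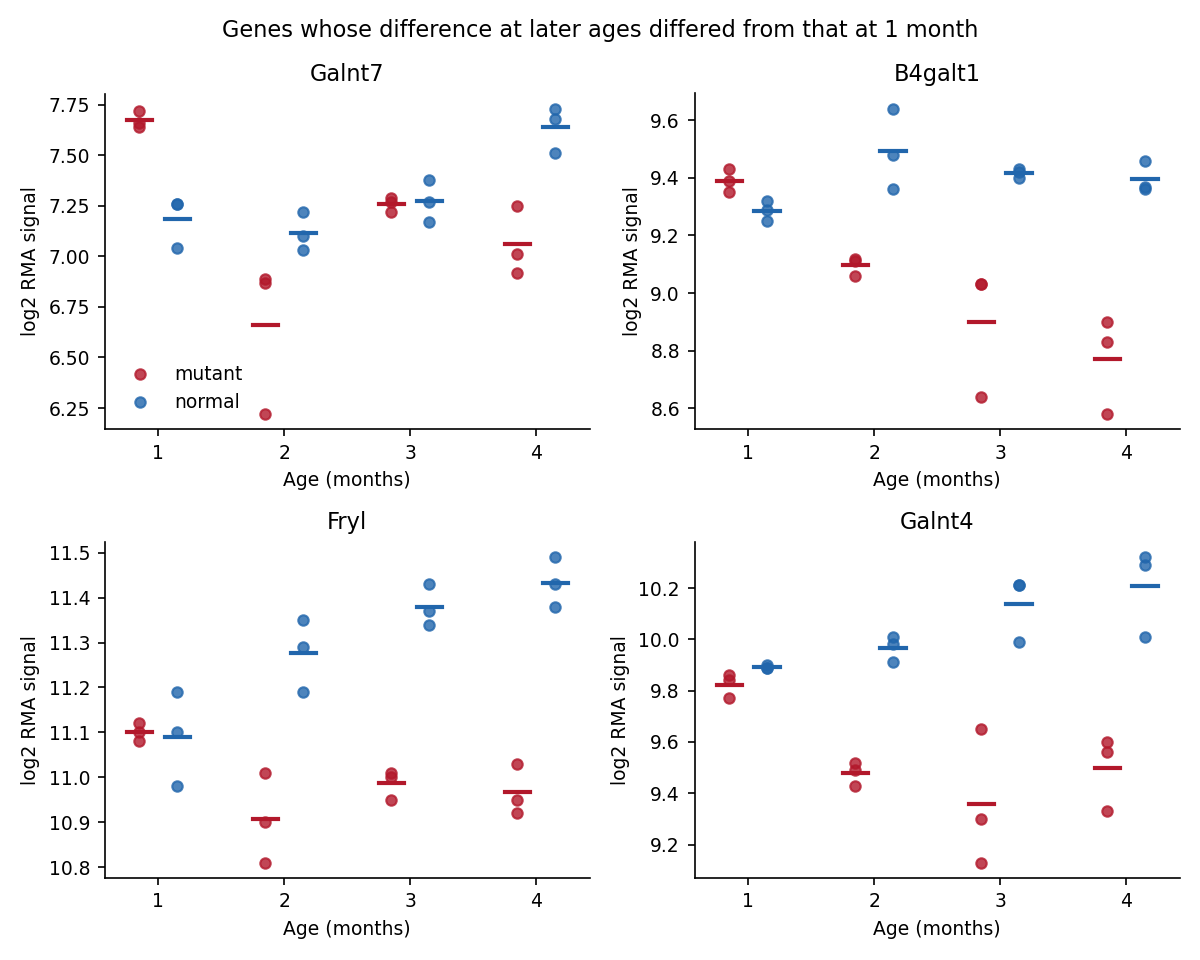
Log2 RMA signal (vertical axis) of Galnt7, B4galt1, Fryl and Galnt4 by age in months, with a point for each array and a bar for the mean of 3 (mutant red and left, normal blue and right). The mutant arrays of Galnt7 lie above the normal ones at 1 month and below them at 4 months, and those of the other 3 genes lie below at 2, 3 and 4 months.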

How the data were processed

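Total RNA of mouse retina was extracted with Trizol and hybridised as biotinylated cRNA to Affymetrix arrays, per the labels' protocols. The deposited values are log2 signals made by the authors with RMA, per the submitters' processing notes. Its version and background settings are not given in the sources used here. Gene names came from RefSeq accessions matched to a RefSeq table (GRCm38.p6). With limma 3.58.1 in R 4.3.3, a mean was fitted for each of 8 groups over 24 arrays (16 residual degrees of freedom) with no filter, and p-values were adjusted by Benjamini-Hochberg over 1246 probe sets at 0.05. Where a listed gene had several probe sets, the brightest by mean signal was used. Named genes were all called ones with separate groups, the list members with the smallest p, the galectins named in the series text, genes known from earlier results, genes whose difference changed with age, and tissue checks. Members and lists were chosen with earlier results of these data known. The alternatives were other normalizations, dim filters, eBayes settings, array weights, replicate blocks, lens-signal arrays, thresholds, arrays left out and 1 month alone. The script was tested on simulated data. The number of arrays limits the precision.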

Additional observations from a re-analysis of the deposited data

Results flagged for a closer look

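For 4 genes the genotype difference at the later ages departed from that at 1 month by the test of the difference itself (limma, adjusted over 1246 probe sets). Given as the mean difference at 2 to 4 months minus that at 1 month, on the log2 scale, it was -0.84 for Galnt7, -0.62 for B4galt1, -0.42 for Fryl and -0.59 for Galnt4.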

How the results depend on the processing

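Btc, Sulf1 and Mcam kept their direction and their call in the 12 other fits and in the 24 fits without 1 array. The count of 4 calls at 1 month was 10 with arrays centred on their medians, 8 after renewed quantile normalization, 7 without probe sets below the 25th percentile, 52 with array weights, 28 on the 6 arrays of 1 month and 3 to 13 with 1 array left out. Of the 4 calls at 1 month, all kept the same sign at 2, 3 and 4 months. For each age alone, 50.5%, 71.2% and 64.4% of all probe sets did. The count of calls with the same sign was 8, 8, 7 and 36 under the first 4 settings just named and 3 to 11 with 1 array left out. The count of 3 for 4 months minus 1 month was 6 centred, 15 quantile normalized, 10 without probe sets below the median, 81 with array weights, 0 without the arrays with a Grifin signal above 10, 0 at an adjusted p under 0.01 and 0 to 24 with 1 array left out. The count of 4 for 2 to 4 months minus 1 month was 24 with array weights, 0 at 0.01 and 0 to 6 with 1 array left out. The cause of these moves was not tested, except that a stricter threshold calls fewer.

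Replicate numbers did not pair the samples at 1, 3 or 4 months, where no pair of deviations correlated over 0.1, but all 3 pairs of 2 months did (r = 0.33, 0.66 and 0.25). With the replicate block the calls at 1 month were 7 over 24 arrays (7 of them with the same sign later) and 56 over 6 arrays, and both counts of change with age were 0.

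Signs turned only for differences near 0. Fryl at 1 month was -0.03 with array weights and -0.05 to 0.06 with 1 array left out, Lgals1 was 0.06 with Grifin and Dcn as covariates and -0.1 to 0.04 with 1 array left out, and Man2a2 was -0.35 to 0.03 with 1 array left out. RMA signals give no bound on background, which limits dim probe sets.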

Other observations

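Lamp2, which encodes a major membrane protein of lysosomes, was measured by 2 probe sets. It falls under no list used here and was picked after its values were seen. The first read 6.97, 6.88 and 6.99 in mutant retinas of 1 month, against 6.43, 6.41 and 6.56 in normal retinas. The other Lamp2 probe set read 8.8, 8.85 and 8.99 in mutant retinas, against 8.37, 8.58 and 8.49 in normal retinas. Neither passed over 24 arrays (adjusted p = 0.404 for both), while both passed in the fit on the 6 arrays of 1 month (adjusted p = 0.00777 and 0.0401, limma). Both are among the 28 calls of that fit given above.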
